A study of Mus musculus with 15 samples.

Results

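Glutathione S-transferases are the enzymes that join reduced glutathione to reactive electrophiles, and 10 of their genes were followed here across a dose series of a herbal extract in C2C12 myotubes. The members were taken by symbol: Gsta1, Gsta2 and Gsta4 of the alpha class, Gstm1, Gstm2 and Gstm5 of the mu class, Gstp1 of the pi class, Gstt1 of the theta class, Gsto1 of the omega class, and Mgst1 of the microsomal family. All 10 symbols were found among the 42807 symbols of the count table. C2C12 myoblasts, an established mouse line, stop dividing and fuse into myotubes in low serum. The cells had differentiated for 6 days and then spent 24 h under 1 of 5 conditions, with 3 mRNA libraries per condition and 15 in all.

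The treated myotubes received Jakyak-gamcho-tang (JGT), an aqueous extract of equal weights of peony and licorice roots, at 20, 100 or 500 µg/mL. They were set against a vehicle group with 0.1% DMSO and a non-treated group. The labels name no dexamethasone for any of these libraries, although the series concerns muscle loss under that glucocorticoid. The top dose was set at the concentration fitted to give 80% viability of myotubes. All libraries came from 1 cell line. The labels do not state whether the replicates of a group were separate cultures. The p-values therefore weigh group differences against the spread of these libraries, some or all of which may be technical. Computed from the described stock, the doses of 20, 100 and 500 µg/mL carried 0.004%, 0.02% and 0.1% DMSO, and the sources used here do not say whether DMSO was topped up. The 6 control libraries carry another series of sample codes than the 9 JGT libraries, so a difference between JGT and control cannot be told apart from one between the code series.

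Glutathione S-transferases fall into cytosolic classes named by Greek letters and a separate family of membrane-bound microsomal enzymes. Many of the genes are known as inducible detoxification genes: the transcription factor NRF2 acts on them at antioxidant response elements, and the aryl hydrocarbon receptor (AhR), a receptor for planar aromatic compounds, acts at xenobiotic response elements. Best known from liver, the family also clears lipid peroxidation products in muscle, and the conjugates it makes leave the cell through ABC transporters and are trimmed to mercapturates.

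The genes sit in clusters. On GRCm38, with gene spans from GENCODE M21, Gsta4 lies at chr9:78182774-78209349 and Gsta1 at chr9:78230656-78242684, both on the plus strand, and Gsta2 lies at chr9:78331018-78355788 on the minus strand. The mu genes share a stretch of chromosome 3, with Gstm5 at chr3:107895821-107898686 on the plus strand, Gstm2 at chr3:107981702-107986453 on the minus strand and Gstm1 at chr3:108012255-108017973 on the minus strand. Gstp1 lies at chr19:4035407-4037985 on the minus strand, Gsto1 at chr19:47854970-47864790 on the plus strand, Gstt1 at chr10:75783813-75798584 on the minus strand and Mgst1 at chr6:138140316-138156755 on the plus strand.

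RefSeq promoter windows (GRCm38.p6, 250 bases before to 50 after the start) were found for 9 of the 10 members, all but Gsta4. Both strands were searched for GCGTG, the core of the xenobiotic response element, and for TGACNNNGC, the core of the antioxidant response element, and matches of the 2 motifs may overlap. GCGTG occurs in 32.4% of the 32851 mouse windows and TGACNNNGC in 12.4%. Among the members, GCGTG was found for Gsta1, Gsta2, Gstm1, Gstm5 and Gstp1, and TGACNNNGC for Gstm5 and Mgst1. The windows of Gstm2, Gstt1 and Gsto1 held neither. The 4 stretches printed here, 120 bases before to 30 after each start, show how close the alpha-class starts are to one another, with Gstp1 for contrast; capitals mark GCGTG, and Gm10639 is a neighbouring alpha-class-like gene. They are Gsta1 at chr9:78230549-78230698 on the plus strand, Gsta2 at chr9:78347116-78347265 on the minus strand, Gm10639 at chr9:78289808-78289957 on the plus strand and Gstp1 at chr19:4037883-4038032 on the minus strand, each read 5′ to 3′ along its gene.
Gsta1: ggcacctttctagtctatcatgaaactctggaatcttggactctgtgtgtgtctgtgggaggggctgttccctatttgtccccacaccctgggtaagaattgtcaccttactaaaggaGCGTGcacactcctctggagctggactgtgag
Gsta2: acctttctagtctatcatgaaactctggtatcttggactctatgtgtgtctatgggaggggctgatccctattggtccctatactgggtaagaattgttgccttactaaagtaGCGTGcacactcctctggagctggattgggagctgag
Gm10639: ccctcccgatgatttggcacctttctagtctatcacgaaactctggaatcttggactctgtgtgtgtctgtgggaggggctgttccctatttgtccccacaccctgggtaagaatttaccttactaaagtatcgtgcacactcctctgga
Gstp1: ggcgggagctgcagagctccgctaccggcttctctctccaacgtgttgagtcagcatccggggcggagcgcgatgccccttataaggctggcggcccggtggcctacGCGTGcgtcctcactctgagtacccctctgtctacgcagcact
In the alpha pair the match began 2 bases before the start of Gsta1 and 7 bases before that of Gsta2, and in Gstp1 it began 13 bases before the start. Over the whole 300-base windows, Gsta1 was 93% identical to Gm10639 and 77.3% identical to Gsta2, yet the Gm10639 window held no GCGTG. A match is a run of letters and not a measured binding site. The lack of an exact match in a 300-base window does not show that a gene lacks such an element.

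The near identity extends into the transcripts and limits which alpha gene a read can be given to. Gsta1 and Gsta2 transcripts were 97.2% identical over 870 aligned bases, and Gsta1 shared 81.8% of its 100-base windows exactly with transcripts of Gsta2, Gm10639 or Gm3776. Gstp1 shared 52.8% of its windows with Gstp2 or a pseudogene, Gsta2 35.0% and Gstm1 7.73%, while Gsta4, Gstm5, Gstt1, Gsto1 and Mgst1 shared none. The split of counts between Gsta1 and Gsta2, and between Gstp1 and Gstp2, is therefore uncertain. The count table holds no row under the symbol Gm3776, so it could not be analysed here.

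Library totals ran from 26012844 to 36854199 counts, and TMM normalisation factors from 0.988 to 1.02. Replicate 2 of JGT 500 stood apart from the other JGT 500 libraries on the first principal component of all genes. It lay at 17.5 against 37.2 and 39.4. The differences of Gstm2, Gstm5 and Mgst3 at 500 µg/mL are also given below without it. Levels are given in CPM, the counts scaled to a common library size. Myotube markers summed to between 18021 and 19198 CPM in JGT 500 libraries and between 18336 and 19598 CPM in vehicle libraries. Of the 9 tested, 3 were higher (Des, Myog and Tnnt3, by 0.29, 0.26 and 0.13 on the log2 scale). Another 3 were lower (Ckm, Myh8 and Myh3, with -0.48, -0.38 and -0.18). For Des and Myh3 the JGT 500 and vehicle libraries overlapped. The myotube calls were not refitted without replicate 2 of JGT 500. In that comparison 16.5% of all tested genes were called higher and 16.8% lower. Markers of dividing cells were lower in JGT 500, for all 5 of 5 listed genes, with sums of 111 to 115 CPM in JGT 500 libraries and 274 to 280 CPM in vehicle libraries. Hepatocyte markers were at or near 0 in every group, with at most 0.100 CPM in sum. In the adipocyte list the sum was 77.5 to 86.8 CPM in JGT 500 libraries and 31.0 to 31.8 CPM in vehicle libraries, carried by Lpl and Pparg, and 3 of its 6 genes were at 0 in JGT 500. The part of cell composition in the results was not tested, and in bulk RNA fewer cells of a type and less RNA per cell cannot be told apart.

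At 500 µg/mL, 6 of the 10 members were higher than in vehicle and none was lower, by edgeR's quasi-likelihood test with Benjamini-Hochberg adjustment over 14461 genes and a threshold of 0.05. The background of that comparison was 16.5% of all genes called higher and 16.8% called lower. The members were chosen with earlier results of these data known. Their counts beside the background, here and at the other doses, are therefore no independent evidence about the family. The 6 were the 3 alpha members, Gstm1, Gstp1 and Mgst1, while Gstm2, Gstm5, Gsto1 and Gstt1 were not called. Gsta2 passed the filter on low counts only through its JGT 500 libraries, so it had to differ between groups and adds nothing to the count as evidence.

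**Figure D1:**
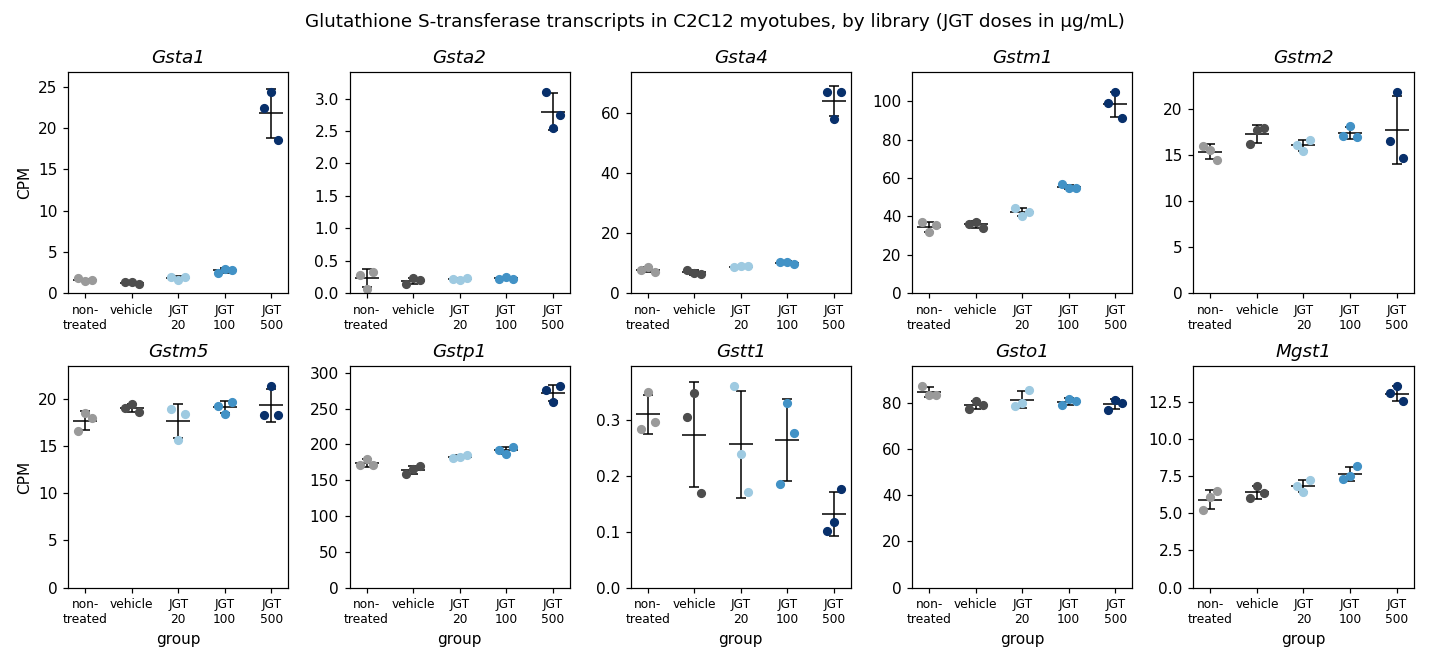
CPM (y axis, from 0, on a scale of its own in each panel) of the 10 members in every library, by group on the x axis; points are libraries, the dash is the mean and the bar the SD of 3 libraries. In Gsta1, Gsta2, Gsta4, Gstm1, Gstp1 and Mgst1 the 3 JGT 500 points lie above all other groups, and in Gstm2 and Gstm5 the highest point is replicate 2 of JGT 500.

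The alpha class showed the widest change. Gsta1, a glutathione transferase and peroxidase, was measured at 22.5, 24.4 and 18.6 CPM in JGT 500 libraries, against 1.35, 1.31 and 1.15 CPM in vehicle libraries. Even the lowest JGT 500 library lay far above every library of the other groups. The log2 fold change was 4.10 ± 0.13 (SE, n = 3 each, edgeR adjusted p = 2.71e-15).
Its levels at the lower doses were 1.96, 1.63 and 1.90 CPM at 20 µg/mL and 2.46, 2.97 and 2.81 CPM at 100 µg/mL. The lower doses form a ladder in which the vehicle, 20 and 100 µg/mL libraries do not overlap. The 20 µg/mL libraries did overlap the non-treated ones, which ran from 1.47 to 1.77 CPM. The rise at 100 µg/mL over vehicle was 1.12 ± 0.16 on the log2 scale (edgeR adjusted p = 0.00016), and at 20 µg/mL the difference of 0.53 ± 0.17 did not pass (edgeR adjusted p = 0.225).

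Gsta2, the close relative of Gsta1, was barely detected outside the highest dose. It had 93.0, 86.7 and 78.1 expected counts in JGT 500 libraries, against 4.25, 6.32 and 6.46 in vehicle libraries. The JGT 100, JGT 20 and non-treated libraries held between 2.27 and 9.05 expected counts and overlapped the vehicle libraries. Its log2 fold change was 3.87 ± 0.27 at 500 µg/mL (edgeR adjusted p = 7.07e-10) and 0.27 at 100 µg/mL (adjusted p = 0.849). Because Gsta2 passed the filter only through its JGT 500 libraries, the p at 500 µg/mL is no support for a rise. Gsta1, Gsta2 and Gm10639 were also summed into 1 gene, so that the split of reads among these 3 does not matter. Where any reads of Gm3776 were counted is not known, as its symbol is not in the count table. The sum rose by 4.02 at 500 µg/mL and by 0.98 at 100 µg/mL on the log2 scale (edgeR adjusted p = 1.23e-15 and 0.000341).

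Gsta4, the alpha enzyme known for clearing 4-hydroxynonenal, a product of lipid peroxidation, shared no window with another transcript. It had 67.2, 58.2 and 67.1 CPM in JGT 500 libraries, against 7.78, 6.83 and 6.20 CPM in vehicle libraries. The 2 groups were far apart, and the log2 fold change was 3.21 ± 0.08 (SE, n = 3 each, edgeR adjusted p = 8.53e-17). At 100 µg/mL it had 10.3, 10.5 and 9.60 CPM, above every vehicle library, with a log2 fold change of 0.54 (edgeR adjusted p = 0.00128). At 20 µg/mL it had 8.54, 9.02 and 8.94 CPM, all above vehicle, with the lowest inside the non-treated range of 6.94 to 8.63 CPM, and the difference from vehicle did not pass (0.35, edgeR adjusted p = 0.147).

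The mu class split. Gstm1, a broad-range cytosolic transferase, had 98.9, 105 and 91.6 CPM in JGT 500 libraries, against 36.3, 37.3 and 33.9 CPM in vehicle libraries, a log2 fold change of 1.46 ± 0.06 (SE, n = 3 each, edgeR adjusted p = 1.30e-13). At 20 and 100 µg/mL its levels were 44.2, 40.4 and 42.5 CPM and 56.7, 55.1 and 54.7 CPM, and the non-treated libraries had 36.9, 31.7 and 35.3 CPM. No dose group overlapped a neighbouring one, and of the 10 members Gstm1 was the only one called between 100 and 20 µg/mL (log2 fold change 0.39, edgeR adjusted p = 0.00164).
Gstm2, which shares its cluster and 86.1% of 668 aligned transcript bases with Gstm1, had 16.5, 21.8 and 14.7 CPM in JGT 500 libraries, against 16.2, 17.7 and 17.9 CPM in vehicle libraries. Gstm5, at the other end of the cluster, had 18.3, 21.3 and 18.2 CPM in JGT 500 libraries, against 19.0, 19.4 and 18.5 CPM in vehicle libraries. For both genes the JGT 500 libraries spread across the vehicle values, with replicate 2 on top. In the other 9 libraries Gstm2 ranged from 14.4 to 18.1 CPM and Gstm5 from 15.6 to 19.6 CPM.
The Gstm2 difference was 0.04 on the log2 scale with a 95% interval of -0.17 to 0.26 (edgeR adjusted p = 0.779), and -0.15 without JGT 500 replicate 2 (adjusted p = 0.0916). The Gstm5 difference was 0.02 with an interval of -0.13 to 0.18 (edgeR adjusted p = 0.826), and -0.06 without that library. Within each library, the log2 ratio of Gstm1 to Gstm2 was 2.26 to 2.64 in JGT 500 and 0.92 to 1.16 in vehicle, and that of Gstm1 to Gstm5 was 2.30 to 2.43 in JGT 500 and 0.87 to 0.94 in vehicle. Neither ratio overlapped between the groups. The two-sided exact permutation test gave p = 0.1 for each of 6 such comparisons over the 3 doses, the smallest value that 3 libraries against 3 allow, and 0.1 after Benjamini-Hochberg adjustment.

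Gstp1, the pi-class enzyme, was the most abundant member. It had 276, 259 and 281 CPM in JGT 500 libraries, against 159, 165 and 169 CPM in vehicle libraries. The lowest JGT 500 library stood well above the highest vehicle library, and the log2 fold change was 0.73 ± 0.04 (SE, n = 3 each, edgeR adjusted p = 9.32e-12).
At 20 and 100 µg/mL it had 181, 182 and 185 CPM and 192, 187 and 196 CPM. All 6 values lay above vehicle, and also above the non-treated libraries at 171 to 180 CPM. The rise over vehicle passed at 100 µg/mL (0.22, edgeR adjusted p = 0.00134) and the difference did not pass at 20 µg/mL (0.15, edgeR adjusted p = 0.105). Summed with Gstp2, the log2 fold change at 500 µg/mL was 0.71.

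Mgst1, a membrane-bound enzyme of the endoplasmic reticulum and outer mitochondrial membrane with transferase and peroxidase activity, had 13.1, 13.6 and 12.6 CPM in JGT 500 libraries, against 6.02, 6.87 and 6.37 CPM in vehicle libraries. The groups did not overlap, with a log2 fold change of 1.03 ± 0.09 (SE, n = 3 each, edgeR adjusted p = 9.75e-09). At 100 µg/mL it had 7.29, 7.50 and 8.22 CPM, all above vehicle, but the difference of 0.26 did not pass (edgeR adjusted p = 0.115). At 20 µg/mL it had 6.88, 6.47 and 7.24 CPM and overlapped vehicle. Set against the non-treated libraries instead, at 5.21, 6.08 and 6.50 CPM, the rise of 0.37 at 100 µg/mL passed (edgeR adjusted p = 0.0105).

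Gsto1, the omega-class enzyme that acts as a thioltransferase and dehydroascorbate reductase, had 77.1, 81.4 and 79.8 CPM in JGT 500 libraries, against 77.5, 80.8 and 79.0 CPM in vehicle libraries. The 2 groups covered almost the same range, and the other 9 libraries lay between 78.6 and 87.1 CPM. The difference was 0.01 on the log2 scale with a 95% interval of -0.08 to 0.09 (edgeR adjusted p = 0.926), the narrowest interval among the 4 members not called.
Gstt1, the theta-class enzyme that acts on small halogenated compounds, was near the limit of detection, with 3, 4 and 5 counts in JGT 500 libraries, against 9, 9 and 5 in vehicle libraries. The groups met at 5 counts, and the other 9 libraries held 5 to 13. The log2 difference was -1.03 with an interval of -1.99 to -0.08, and did not pass (edgeR adjusted p = 0.0876). It passed against the non-treated libraries, which held 8, 10 and 8 counts (-1.23, edgeR adjusted p = 0.0398), and without vehicle replicate 3 (-1.30, adjusted p = 0.0499). Gstt1 entered the test only through groups where its counts are higher, since it fails the filter without the non-treated, vehicle or JGT 20 libraries, so these calls are no support for a fall, and with no filter the adjusted p against vehicle was 0.173.

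**Figure D2:**
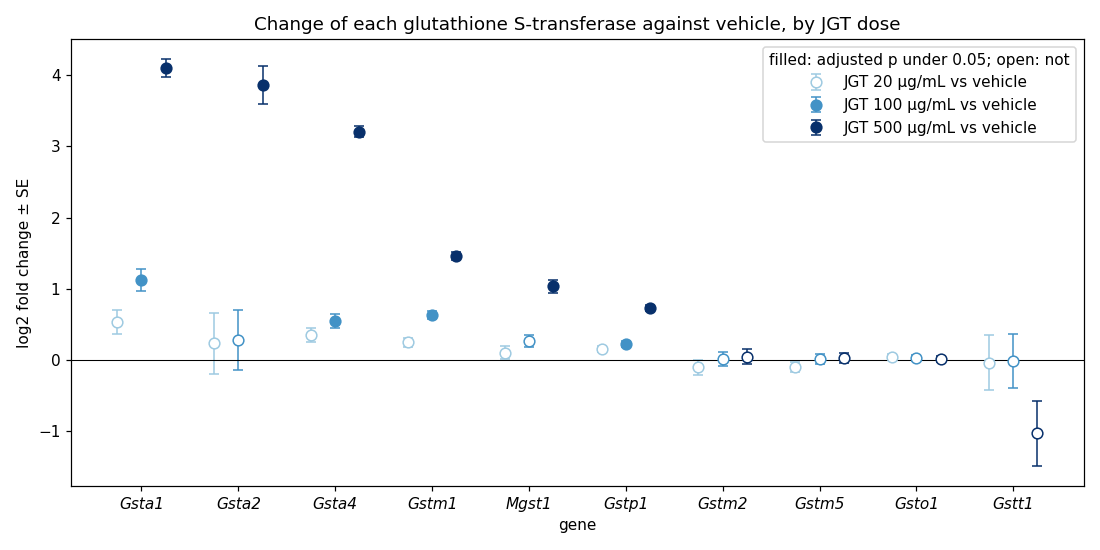
Log2 fold change against vehicle (y axis) with the standard error of the fit, for each member (x axis) at 20, 100 and 500 µg/mL; filled points had an adjusted p under 0.05. The 500 µg/mL points run from 4.10 for Gsta1 to -1.03 for Gstt1, and no point at 20 µg/mL is filled.

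At 100 µg/mL, 4 members rose over vehicle, namely Gsta1, Gsta4, Gstm1 and Gstp1, and none fell, in a comparison where 2.09% of all genes were called higher and 2.22% lower. The members reached different shares of their full log2 change at that dose. Gstm1 was at 43.2% of its log2 change at 500 µg/mL, Gstp1 at 30.7%, Gsta1 at 27.2%, Mgst1 at 25.3%, Gsta4 at 16.9% and Gsta2 at 7.1%. These shares have no test of their own, and those of Mgst1 and Gsta2 rest on differences at 100 µg/mL that did not pass.

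At 20 µg/mL, edgeR called none of the 10 members against vehicle, with 4 at an unadjusted p under 0.05, and DESeq2 called 1, Gstm1 (log2 fold change 0.24, adjusted p = 0.0494). All genes gave 0.173% called higher and 0.152% lower there. The 4 were Gsta1, Gsta4, Gstm1 and Gstp1, whose libraries at 20 µg/mL all lay above vehicle. Fitting only the JGT 20 and vehicle libraries called Gsta4, Gstm1 and Gstp1 (edgeR adjusted p = 0.0360, 0.00328 and 0.00859). The shares of all genes at the unadjusted threshold, without overlap and called in that fit were not taken. The counts of members by these measures are therefore no result about the family.

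Between 500 and 100 µg/mL, all within the JGT series, the same 6 members as against vehicle were higher at 500 µg/mL, beside 9.05% of all genes called higher and 10.7% lower. The log2 fold changes were 3.59 for Gsta2, 2.99 for Gsta1, 2.66 for Gsta4, 0.83 for Gstm1, 0.77 for Mgst1 and 0.50 for Gstp1, with edgeR adjusted p-values between 8.68e-16 and 7.57e-07. This comparison shares its JGT 500 libraries with the one against vehicle. Gsta2 passed the filter on low counts only through those libraries, so its call here also adds nothing to the count as evidence. Between 100 and 20 µg/mL 1 member was called, beside 0.297% of all genes higher and 0.131% lower, and Gsta1 at 0.58 did not pass (edgeR adjusted p = 0.0817).

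Vehicle against non-treated gave 0 calls among the 10 members by edgeR and 0 by DESeq2. By edgeR 0.553% of all genes were called higher and 0.754% lower. In each, 2 members had an unadjusted p under 0.05, and the share of all genes at that threshold was not taken. Gsta1 had 1.35, 1.31 and 1.15 CPM in vehicle libraries and 1.77, 1.47 and 1.55 CPM in non-treated libraries. The vehicle values were all below the non-treated ones, but the log2 difference of -0.33 did not pass (edgeR adjusted p = 0.362). Against non-treated in place of vehicle, the log2 fold change of Gsta1 was 3.77 at 500 µg/mL and 0.78 at 100 µg/mL, and both passed (edgeR adjusted p = 3.73e-15 and 0.00155).

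Scaled by summed exon length, the make-up of the family changed. That length pools the exons of all coding transcripts of a gene and can exceed its longest one. It was 2013 bases for Mgst1, with a longest coding transcript of 1167, and 875 by both measures for Gsta1. Shares and ranks depend on this choice. The summed level of the 10 members was 555 to 563 CPM per kb in JGT 500 libraries, 311 to 324 CPM per kb in vehicle libraries. Gstp1 ranked first in every group, at 304 CPM per kb in JGT 500 and 184 CPM per kb in vehicle, which was 54.3% and 57.6% of the sum. Gsta4 had 50.7 CPM per kb in JGT 500, above Gstm5 and Gstm2, and 5.48 CPM per kb in vehicle, below both.
The 3 alpha members together held 14.0% ± 0.44 of the summed level in JGT 500 and 2.23% ± 0.27 in vehicle (SD, n = 3 each). Across the doses the alpha share was 2.23% in vehicle, 2.68% at 20 µg/mL, 3.06% at 100 µg/mL and 14.0% at 500 µg/mL. In CPM, the mean difference of JGT 500 minus vehicle was 107 for Gstp1, 62.6 for Gstm1, 57.2 for Gsta4 and 20.5 for Gsta1, so the order by added reads differed from the order by log2 fold change.

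**Figure D3:**
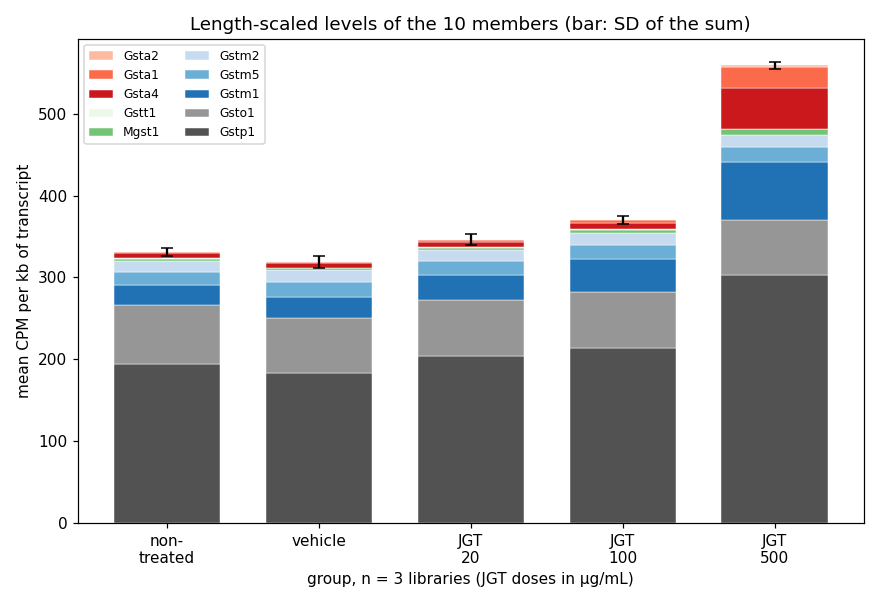
Stacked mean levels of the 10 members in CPM per kb of summed exon length (y axis, labelled per kb of transcript) in the 5 groups (x axis). The bar on top is the SD of the summed level over 3 libraries. The JGT 500 column is the tallest, and its alpha-class layers (red shades) make up 14.0% of it against 2.23% in vehicle.

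By the rule used for likeness, the genes with the closest pattern were those with the highest Pearson r of log2 CPM over the 15 libraries among 10437 other tested genes with a mean of at least 5 CPM. For Gsta4 these were Ctrb1 (r = 0.986), Mmd (0.983) and Igfbp4 (0.982). For Gstm1 they were Fth1, the ferritin heavy chain (0.990), Lpl, lipoprotein lipase (0.989), and Cyp1b1, a cytochrome P450 under AhR control (0.986). All 15 points share the dose groups, so the values describe a common dose pattern only.

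Of 24 further glutathione transferase and microsomal family genes listed, 20 were in the table and 13 were tested, of which 3 were higher and 1 lower at 500 µg/mL, beside the 16.5% and 16.8% of all genes in that comparison. Their median log2 fold change was 0.19, beside 0.01 over all tested genes, and at 100 and 20 µg/mL 0 of the 13 were called.
Mgst2, a microsomal enzyme that can also make leukotriene C4, had 2.64, 2.46 and 2.36 CPM in JGT 500 libraries, against 0.575, 0.656 and 0.708 CPM in vehicle libraries. The groups were well apart (log2 fold change 1.94, edgeR adjusted p = 3.20e-08). Gsto2, the neighbour of Gsto1 on chromosome 19, had 4.64, 3.19 and 3.53 CPM in JGT 500 libraries, against 1.42, 2.20 and 1.75 CPM in vehicle libraries. It rose by 1.09 over vehicle on the log2 scale (edgeR adjusted p = 3.60e-05), while Gsto1 was not called. The non-treated libraries of Gsto2 had 2.23, 2.76 and 2.59 CPM, all above vehicle, so the rise over them was smaller. Vehicle differed from non-treated by -0.51 on the log2 scale, which did not pass (edgeR adjusted p = 0.157). Gm10639 had 18.7, 17.4 and 19.4 expected counts in JGT 500 libraries, against 2, 3.3 and 1.17 in vehicle libraries (fitted log2 fold change 3.01), and shared 30.0% of its windows with other alpha-class transcripts. Like Gsta2, it passed the filter on low counts only through its JGT 500 libraries, so it had to differ and its call adds nothing to the count.
Mgst3, another microsomal member, was the one that fell, with 14.4, 22.9 and 12.5 CPM in JGT 500 libraries, against 24.3, 28.4 and 28.8 CPM in vehicle libraries. Replicate 2 of JGT 500 was the highest of its group and stood near the vehicle values. At 22.9 CPM it lay inside the non-treated range of 21.4 to 26.0 CPM. The log2 fold change was -0.70 (edgeR adjusted p = 0.0119), and -1.02 without that library (adjusted p = 2.64e-08). Without JGT 500 replicate 1, 2 of the 13 were called lower.

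Genes that supply glutathione changed by smaller amounts. Of 10 tested, 4 rose at 500 µg/mL and 0 fell, beside 16.5% of all genes called higher and 16.8% lower. Gclm, the modifier subunit of glutamate-cysteine ligase, rose by 0.50 on the log2 scale and Chac2 by 0.37. Oplah, which recycles 5-oxoproline, rose by 0.36 and Gss, glutathione synthetase, by 0.15 (edgeR adjusted p of the 4 between 3.22e-07 and 0.00987). Chac2 did not pass without vehicle replicate 3 (0.26, adjusted p = 0.0817) or without JGT 500 replicate 1 (0.27, adjusted p = 0.0739). Gclc, the catalytic subunit, gave -0.08 and did not pass (edgeR adjusted p = 0.243). The list median was 0.23, and 2 of the 10 rose at 100 µg/mL, beside 2.09% of all genes.

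Of 13 tested genes of conjugate export and mercapturate formation, 5 rose and 1 fell at 500 µg/mL. Beside them 16.5% of all genes were called higher and 16.8% lower. The list had a median log2 fold change of 0.17. Dpep1, a dipeptidase that trims glutathione conjugates, rose by 0.77, Anpep, an aminopeptidase, by 0.58 and the transporter gene Abcc4 by 0.51 (edgeR adjusted p between 1.32e-09 and 0.000651). For Dpep1 and Anpep every vehicle library lay below the non-treated ones, with log2 differences of -0.32 and -0.11. Neither difference passed (edgeR adjusted p = 0.148 and 0.204). The gene that fell was Lap3, by 0.11 on the log2 scale, named after its value was seen, and it did not pass without vehicle replicate 2, vehicle replicate 3 or JGT 500 replicate 3. At 100 µg/mL, 1 of the 13 was higher, beside 2.09% of all genes.

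Among 14 regulators of NRF2 and AhR signalling, 8 rose and 1 fell at 500 µg/mL, with a median of 0.16. In that comparison 16.5% of all genes were called higher and 16.8% lower. Ahrr, the AhR repressor, rose by 2.92, Sqstm1, which binds KEAP1, by 0.52, and the small MAF gene Maff by 0.46, while Ahr itself fell by 0.40 on the log2 scale (edgeR adjusted p between 1.12e-07 and 3.98e-05). At 100 µg/mL Ahr alone was called, lower by a log2 change of -0.20 (edgeR adjusted p = 0.0095). All 8 listed readout genes of these pathways were called higher at 500 µg/mL, of which Cyp1a1 passed the filter only through its JGT 500 libraries and had to differ. The other 7 included increases of 3.82 on the log2 scale for Aldh3a1, 2.76 for Nqo1, 2.48 for Cyp1b1 and 0.49 for Txnrd1. At 100 µg/mL 5 of the 8 rose, beside 2.09% of all genes called higher and 2.22% lower. These lists were drawn up with earlier results of these data known, so their directions are no independent evidence.

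**Figure D4:**
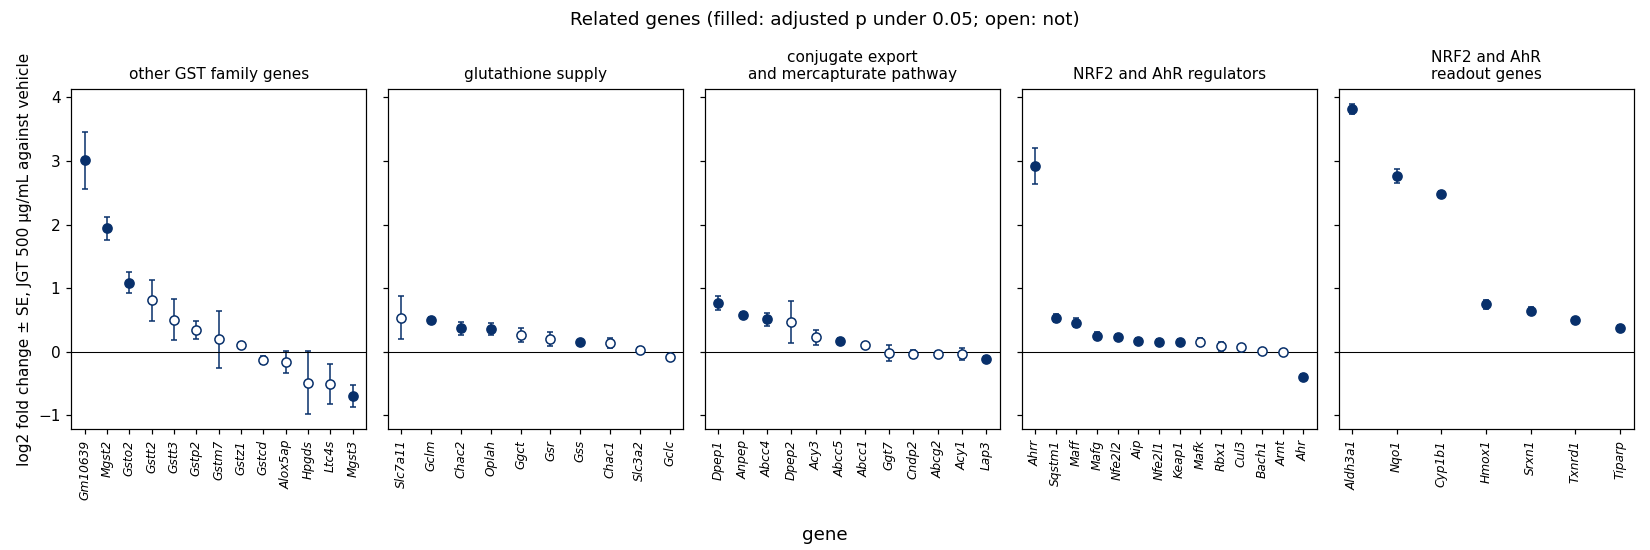
Log2 fold change at 500 µg/mL against vehicle (y axis) with the standard error of the fit for tested genes (x axis) of 5 related lists; filled points had an adjusted p under 0.05. Cyp1a1 is left out because its vehicle counts are too low for a fold; the other readout genes all lie above 0, and Mgst3 is the lowest filled point in the first panel, at -0.70.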

How the data were processed

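The values are expected counts per gene symbol as deposited by the authors, with 1 column for each of 15 libraries and no normalization. Per the submitters' processing notes, reads were handled with RSEM 1.3.3, STAR 2.7.3a, Trim Galore 0.6.5 and FastQC 0.11.9 on build GRCm38. The annotation and the strand setting are not given in the sources used, so genes overlapping on opposite strands may share counts. Of the values, 9.34% were not whole within 0.005, and all were rounded for testing. Genes were filtered with filterByExpr (minimum count 10), leaving 14461, scaled by TMM and fitted in 1 edgeR 4.0.16 quasi-likelihood model (R 4.3.3, limma 3.58.1) with a mean per group and 10 residual degrees of freedom. A gene was called at a Benjamini-Hochberg adjusted p under 0.05 over all tested genes. CPM are TMM-scaled, and levels per kb use each gene's summed exon length. The test was checked on simulated data.

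All 10 members are named, with the 4 genes of smallest p in each related list (1 gene of the export list is not reported here) and the 3 nearest patterns of Gsta4 and Gstm1. Members and lists were chosen with earlier results of these data known. Alternatives were other scalings, no filter, DESeq2 1.42.0, a fit of the compared groups, a replicate block, summed copies, non-treated as control and leaving out libraries. The main fit did not pair samples by replicate number, as the labels state no pairing.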

Additional observations from a re-analysis of the deposited data

How the results depend on the processing

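Of 605 member values recomputed under the alternatives, 570 kept their direction and their side of the threshold, 10 passed where they had not, none lost a call, and the 25 that turned direction were all of values not called. At 500 and 100 µg/mL against vehicle the calls of Gsta1, Gsta4, Gstm1 and Gstp1 held under every alternative run. At 20 µg/mL the count of called members, 0, became 1 with no filter, 1 with DESeq2, 3 with only the JGT 20 and vehicle libraries and 1 against non-treated; between 100 and 20 µg/mL the 1 call became 2 with no filter, through Gsta1 (0.59, adjusted p = 0.0386).

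Against non-treated, Gsto1 turned to -0.0918, -0.0708 and -0.0563 at 500, 100 and 20 µg/mL, and at 20 µg/mL Gsta2 turned to -0.0359, Gstm2 to 0.0628 and Gstm5 to 0.00111. With library totals only, Gstm2 and Gstm5 at 100 µg/mL turned to -0.00231 and -0.00268. With 1 library left out, the log2 differences at 500 µg/mL ran from -0.149 to 0.156 for Gstm2, -0.0620 to 0.0605 for Gstm5 and -0.0190 to 0.0236 for Gsto1. At 100 µg/mL they ran from -0.0377 to 0.0361 for Gstm2, -0.0144 to 0.0332 for Gstm5 and -0.284 to 0.170 for Gstt1, and at 20 µg/mL from -0.401 to 0.167 for Gstt1. The cause of these turns was not tested.

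The labels do not state whether the replicate numbers pair the samples, though JGT libraries of the same number share the first part of their sample code. Between 500 and 100 µg/mL the correlations of same-numbered libraries were 0.073, 0.106 and 0.116. Each JGT 500 library correlated best with the JGT 100 library of its own number, which is a weak hint at most. Between JGT 500 and vehicle, which share no first part of the code, the correlations were 0.0882, 0.119 and -0.0279. Between 100 and 20 µg/mL the correlations were -0.106, -0.0769 and 0.0575. With the replicate as a block the counts of called members stayed 6, 4, 0, 0, 6 and 1.

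Gstt1, at 3 to 13 counts a library, is limited by depth. Leaving out single libraries for the related lists was chosen after seeing the data.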
